A study of Sus scrofa with 34 samples.

Results

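The interferon regulatory factors are a family of transcription factors, and 8 of their genes were described here: IRF1, IRF2, IRF3, IRF4, IRF5, IRF7, IRF8 and IRF9. The genes were taken by symbol from a list of family members, and they are 8 of the 25880 genes in the count tables. All 8 passed the filter on low counts in the ileum and in the liver.

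RNA sequencing (RNA-Seq) was done on crossbred weaned piglets fed 1 of 4 diets up to day 28. The diets were a control diet, the same diet with a phytogenic feed additive (PFA) of encapsulated essential oils, a diet with oxidized rapeseed oil (OO), and OO with PFA (OO + PFA). The middle ileum was sequenced in 10 piglets, 5 on the control diet and 5 on PFA, and the liver in 24 piglets, 6 on each diet. The same 10 piglets gave both tissues. Every diet had a single pen, and effects of pen and of diet therefore cannot be told apart. The oxidized oil was an addition to the diet, which raised its fat and calculated energy, and no diet held as much fresh oil. Effects of oxidation and of the added fat and energy therefore cannot be told apart between OO and control. OOP-77, left out by the study for the quality of its RNA, was left out of the tests here, which held 23 liver libraries. Pigs are named by their number in the labels, with the prefix OO for the OO diet and OOP for OO + PFA (OO-99, OOP-79).

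Interferon regulatory factors share a DNA-binding domain that reads repeats of GAAA, the core of the interferon-stimulated response element (ISRE). IRF3 and IRF7 are phosphorylated by the kinase TBK1 after viral nucleic acid is sensed and switch on the type I interferon genes, and IRF5 acts after Toll-like receptors that use MYD88. IRF9 joins STAT2 in the complex that carries the type I interferon signal to the nucleus. IRF1 is induced by interferon gamma through gamma-activated sites (GAS) and raises the genes of antigen processing, while IRF2 binds the same elements and restrains it. IRF4 and IRF8 are mainly factors of lymphoid and myeloid cells. In the gut these factors take part in defence at the mucosa, and in the liver they act in hepatocytes and in the resident macrophages.

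The count tables place the genes on Sscrofa11.1, the build of the RefSeq annotation used for positions. IRF1 (ENSSSCG00000014277) lies on chromosome 2 from 134776122 to 134783646, and IRF7 (ENSSSCG00000012853) on chromosome 2 from 372235 to 375572. IRF2 (ENSSSCG00000015782) lies on chromosome 15 from 45546779 to 45693241 and IRF5 (ENSSSCG00000016573) on chromosome 18 from 19678377 to 19691154. IRF3 (ENSSSCG00000003178) lies on chromosome 6 from 54701733 to 54706079, and IRF8 (ENSSSCG00000034980) on chromosome 6 from 3041617 to 3060685. IRF4 (ENSSSCG00000033381) lies on chromosome 7 from 133358 to 149609 and is the single member on the plus strand, and IRF9 (ENSSSCG00000002002) lies on chromosome 7 from 75133800 to 75139641. The exon sequence of IRF7 had the highest GC content of the 8 genes, 68.4%, followed by IRF3 with 63.3%, and that of IRF2 had the lowest, 46.0%. In this annotation IRF1 lies wholly within SLC22A5 on the other strand, IRF5 overlaps KCP on the other strand over 2044 bases, and IRF2 overlaps LOC106506214 on its own strand over 6042 bases. The strand option of the counting was not given in the sources used here, so the share of reads from such overlaps is uncertain for these 3 genes.

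The 250 bases before the RefSeq gene start were searched for 2 elements of interferon signalling. The IRF3 model is 1257 bases for a protein of 418 residues, which is coding sequence alone. Its 250 bases therefore precede the start codon, and where transcription starts is not given by this model. The GAS pattern TTCNNNGAA, which reads the same on both strands, occurred in 1189 of 19497 promoters of the same length (6.1%), and in those of IRF1, IRF8 and IRF9. The ISRE pattern GAAANNGAAA, searched on both strands, occurred in 583 of 19497 promoters (2.99%) and in none of the 8. These 3 promoters are shown because IRF1, IRF8 and IRF9 are the members with a GAS match. Each is read on the minus strand of RefSeq Sscrofa11.1 from 5′ to 3′, with the GAS match in capitals, at chr2:134783647-134783896 for IRF1, chr6:3060686-3060935 for IRF8 and chr7:75139642-75139891 for IRF9.
IRF1: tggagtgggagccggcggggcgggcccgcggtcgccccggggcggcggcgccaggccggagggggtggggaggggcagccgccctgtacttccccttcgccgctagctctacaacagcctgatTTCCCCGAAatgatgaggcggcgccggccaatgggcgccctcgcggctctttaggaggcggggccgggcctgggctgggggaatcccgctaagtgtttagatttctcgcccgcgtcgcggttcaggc
IRF8: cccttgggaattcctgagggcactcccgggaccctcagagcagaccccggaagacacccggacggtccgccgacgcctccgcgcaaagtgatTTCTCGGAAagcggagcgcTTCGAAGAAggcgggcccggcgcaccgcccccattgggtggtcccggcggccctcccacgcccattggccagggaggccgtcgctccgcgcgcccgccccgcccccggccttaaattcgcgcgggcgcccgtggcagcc
IRF9: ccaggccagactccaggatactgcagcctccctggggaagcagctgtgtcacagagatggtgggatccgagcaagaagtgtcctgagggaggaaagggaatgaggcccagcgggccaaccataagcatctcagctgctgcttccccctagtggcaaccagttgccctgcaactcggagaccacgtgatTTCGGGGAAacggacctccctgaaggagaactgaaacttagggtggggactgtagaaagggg
Counted back from the base before the gene start as -1, the IRF1 match TTCCCCGAA begins at -127. The matches in IRF8 are TTCTCGGAA, beginning at -158, and TTCGAAGAA, beginning at -139, and the match in IRF9 is TTCGGGGAA, beginning at -62. A match describes the letters and does not show that a factor binds there.

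The authors deposited, per gene, the read pairs counted by HTSeq as whole numbers, and between 18738055 and 42446834 of them per library (median 24327220) were on genes. Expression is given as CPM, counts relative to the size of the library, with library sizes scaled by the trimmed mean of M-values (TMM), either within a tissue or, for the comparison of tissues, over the ileum and liver of the same pigs. Hepatocyte markers, albumin among them, summed to between 76100 and 165000 CPM in the liver and to between 1061 and 3874 CPM in the ileum, and markers of ileal epithelium summed to at least 6886 CPM in the ileum and at most 38.2 CPM in the liver. One ileum library stood apart by its B cell markers (MS4A1, CD79A, CD79B, PAX5 and CD22), whose sum was 549.3 CPM in control pig 80 and between 11.2 and 25.4 CPM in the other 9. Libraries also differed in how counts followed the GC content of genes. The slope of this relation, in log2 units per 10 percentage points of GC, ran from -0.373 to 0.373 in the ileum and from -0.474 to 0.487 in the liver. In the liver it was 0.297, 0.418 and 0.370 in OO-99, OO-102 and OO-130, and -0.347, -0.151 and -0.378 in OO-74, OO-88 and OO-97. The slope was 0.041 to 0.487 in the tested OO + PFA livers and -0.205 to 0.082 in the control livers, so it differed between these diets. Values that touch a result are given beside it. For the members some are also given after the GC content was corrected by a curve per library. Fold changes of the pathway lists and cell markers were not corrected for GC content.

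IRF1 was the most abundant member in the ileum and stood 4.38-fold above the liver of the same pigs. IRF4 and IRF8 were also higher in the ileum, by 3.76-fold and 2.0-fold, while IRF2 and IRF3 were lower there relative to the bulk of genes. With both tissues scaled together by TMM, IRF1 ranged from 173.5 to 330.8 CPM in the ileum of the 10 pigs (median 244.4) and from 44.3 to 74.5 CPM in the liver (median 53.2), and the tissues did not overlap. The log2 difference was 2.13 (standard error, SE, 0.13, adjusted p = 4.9e-12, edgeR), with IRF1 higher in the ileum of 10 of 10 pigs.

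IRF4, a factor of activated lymphocytes and plasma cells, ranged from 7.61 to 26.8 CPM in the ileum (median 13.7) and from 2.16 to 7.68 CPM in the liver (median 3.68). Its log2 difference was 1.91 (SE 0.27, adjusted p = 1.96e-06), in 10 of 10 pigs. IRF8, needed for monocyte and dendritic cell development, ranged from 19.4 to 50.5 CPM in the ileum (median 30.8) and from 10.4 to 25.6 CPM in the liver (median 16.1). The tissues overlapped for IRF8, which was higher in the ileum of 9 of 10 pigs, with a log2 difference of 1.00 (SE 0.19, adjusted p = 8.7e-05).

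IRF2 and IRF3 were lower in the ileum than in the liver under TMM, and higher there when libraries were scaled by total counts alone. IRF2 ranged from 43.7 to 60.5 CPM in the ileum (median 52.1) and from 57.5 to 84.0 CPM in the liver (median 65.8), with the liver higher in 10 of 10 pigs. IRF3 ranged from 20.9 to 52.3 CPM in the ileum (median 28.3) and from 28.1 to 71.8 CPM in the liver (median 49.6), with the liver higher in 9 of 10 pigs. Their log2 differences of ileum from liver were -0.37 (SE 0.08, adjusted p = 0.00017) and -0.60 (SE 0.18, adjusted p = 0.0044) under TMM, but 0.75 and 0.51 with total counts. The 10 most abundant genes took 25.2% to 34.8% of the counts of a liver library of these pigs and 12.5% to 16.2% of those of an ileum library, and total-count scaling moved the median log2 difference of all genes from 0.05 to 1.17. Measured from the median of all genes, IRF2 was at -0.42 under both scalings, and IRF3 at -0.65 under both.

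The other 3 members did not pass the test under TMM. IRF7 was at 17.3 ± 14.5 CPM in the ileum (SD, n = 10) and 10.2 ± 5.76 CPM in the liver (SD, n = 10), with a log2 difference of 0.63 (SE 0.40, adjusted p = 0.155). IRF5 was at 10.8 ± 3.84 CPM (SD, n = 10) and 12.8 ± 3.36 CPM (SD, n = 10) with a log2 difference of -0.25 (adjusted p = 0.255), which became 0.85 with total counts. IRF9 was at 0.840 ± 0.190 CPM (SD, n = 10) and 0.681 ± 0.347 CPM (SD, n = 10). In all, 5 of the 8 members were called, 3 of them higher and 2 lower in the ileum, where 78.1% of all 14982 genes tested were called, and with total-count scaling all 8 were called and higher in the ileum.

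**Figure D1:**
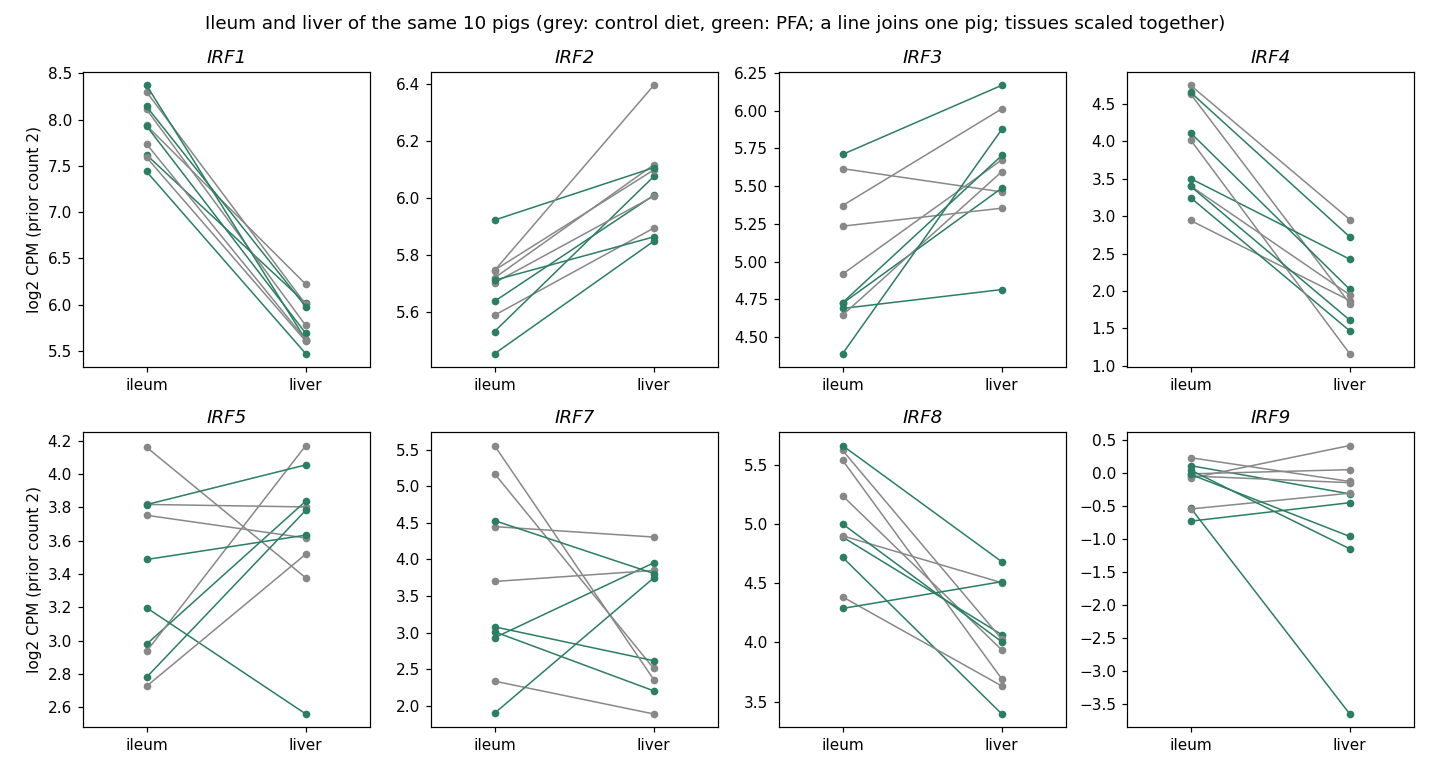
Each panel shows 1 gene in the ileum and liver of the same 10 pigs, as log2 CPM (prior count 2) with both tissues scaled together by TMM, and a line joins the values of a pig. All 10 lines fall from ileum to liver for IRF1 and IRF4 and rise for IRF2, while those of IRF5 and IRF7 cross, and the IRF2 order turns when libraries are scaled by total counts alone.

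Levels were also divided by the exon length of the RefSeq models. Such a length joins all transcripts of a gene, 8 for IRF2 and 1 for IRF3. The IRF3 model holds coding sequence alone, 1257 bases, and that of IRF1 has 2473 bases, so the rank of IRF3 per kb is uncertain. In the ileum levels ran from IRF1 at 99.8 ± 21.6 CPM per kb (SD, n = 10) through IRF3 at 26.6 ± 8.69 (SD, n = 10) to IRF9 at 0.576 ± 0.130 (SD, n = 10). IRF8 (9.56 CPM per kb), IRF2 (8.88) and IRF7 (8.46) lay between them, and neighbours among these 3 did not differ beyond the spread between pigs (exact permutation over pairs within pigs, p = 0.822 for IRF8 against IRF2 and p = 0.219 for IRF2 against IRF7). IRF4 (2.89 CPM per kb) and IRF5 (2.21) followed. In the liver IRF3 was highest per kb, at 40.1 ± 9.91 CPM per kb (SD, n = 10), ahead of IRF1 at 22.8 ± 3.90 (SD, n = 10) and IRF2 at 11.5 ± 1.34 (SD, n = 10). Before the division the order was the reverse, with liver means of 66.1 CPM for IRF2, 56.4 for IRF1 and 50.4 for IRF3. IRF7 (4.96 CPM per kb) and IRF8 (4.78) did not differ beyond their spread (exact permutation p = 0.592), and IRF5 (2.62), IRF4 (0.764) and IRF9 (0.467) came last. Over the 14 pairs of neighbours the other 11 had adjusted p-values of at most 0.0249 (exact permutation, two-sided), and the smallest p that 10 pigs allow is 0.00195. The pairs that include IRF3 carry the limit of its length, which this test does not measure.

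IRF9 was near the limit of counting, with 0 to 39 counts per library over all 34 libraries (median 17). The genes beside it on the chromosome were uneven in the same tables. PSME2, a subunit of the proteasome activator, had 1179 to 5368 counts, its partner PSME1 had 8 to 58, and IPO4 had 0 to 5. REC8 had 25 to 455 counts, RNF31 238 to 1111, EMC9 49 to 404 and DCAF11 1426 to 9793. For every 100 read pairs counted on genes in a library, between 2.24 and 4.81 others fell on several genes at once and were not counted on any. The part of such pairs in the low counts of IRF9 was not tested. Differences in IRF9 below are therefore set by few reads.

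Genes of the pathway around the members were compared between tissues in the same way. Among 38 genes that interferon induces, 32 were called (84.2%), near the 78.1% of all genes, with 30 called higher in the ileum and 2 lower. In all 34 of the 38 were higher under TMM, where 51.5% of all genes were, and their median log2 difference was 1.22 against 0.05 over all genes. GBP2, a guanylate-binding protein, was 4.42 log2 units higher, TAP1, the peptide transporter of antigen processing, 3.14, and PSMB8, an immunoproteasome subunit, 2.10. IFNG, the interferon gamma gene, was 3.78 log2 units higher in the ileum (adjusted p = 2.5e-12), and IFNE, an interferon of epithelia, 7.93. Of 9 genes of interferon receptors and their signalling, 6 were called (66.7%). There were 5 called higher, among them IFNGR1 by 2.64 and JAK2 by 1.61 log2 units, and 1 lower, STAT2, which was lower by 2.77 log2 units (adjusted p = 1.4e-14). Of 13 sensors and adaptors 7 were called (53.8%), 6 higher and 1 lower in the ileum, and the adaptor TICAM1 had a log2 difference of -1.87. Of 10 upstream kinases and ubiquitin ligases 7 were called (70%), 7 higher and 0 lower, and the kinase IKBKE was higher by 2.02. Under TMM the 4 T cell markers had a median log2 difference of 2.48 and the 6 macrophage markers one of -2.46, and in bulk tissue fewer cells of a type and less RNA per cell cannot be told apart.

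In the ileum the question was whether PFA moved these genes, and none of the 8 was called where 0% of all 14300 genes tested were called (edgeR, adjusted p of at most 0.05). At an unadjusted p under 0.05 there were 0 members and 401 of all genes, and DESeq2 called 0 members and 4 genes in all. All 8 log2 fold changes were negative, from -1.26 for IRF7 to -0.01 for IRF1, with a median of -0.21 against 0.02 over all genes. After GC correction 6 were negative and 2, IRF1 (0.06) and IRF9 (0.03), were positive, and the median was -0.09.

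IRF7, the factor that amplifies type I interferon production, had the largest difference of the 8. It was at 68.8, 53.4, 31.4, 19.0 and 7.46 CPM in control pigs 100, 71, 80, 92 and 110. In PFA pigs 134, 95, 107, 75 and 138 it was at 34.4, 12.3, 11.7, 11.2 and 5.39 CPM. The groups overlapped, with pig 134 among the higher control pigs and pig 110 among the PFA pigs. The log2 fold change was -1.26 (SE 0.58, unadjusted p = 0.0512, adjusted p = 0.991, edgeR), a mean of 15.0 ± 11.2 CPM with PFA (SD, n = 5) against 36.0 ± 25.0 CPM (SD, n = 5). Without PFA pig 134 it was -1.83 and without control pig 100 -0.89, with adjusted p-values from 0.329 to 1 over all pigs left out. After GC correction it was -0.92 (SE 0.33, unadjusted p = 0.0186, adjusted p = 0.9995). The study chose IRF7 for a check by quantitative PCR partly for its fold change in these samples, so its direction here is not independent evidence.

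**Figure D2:**
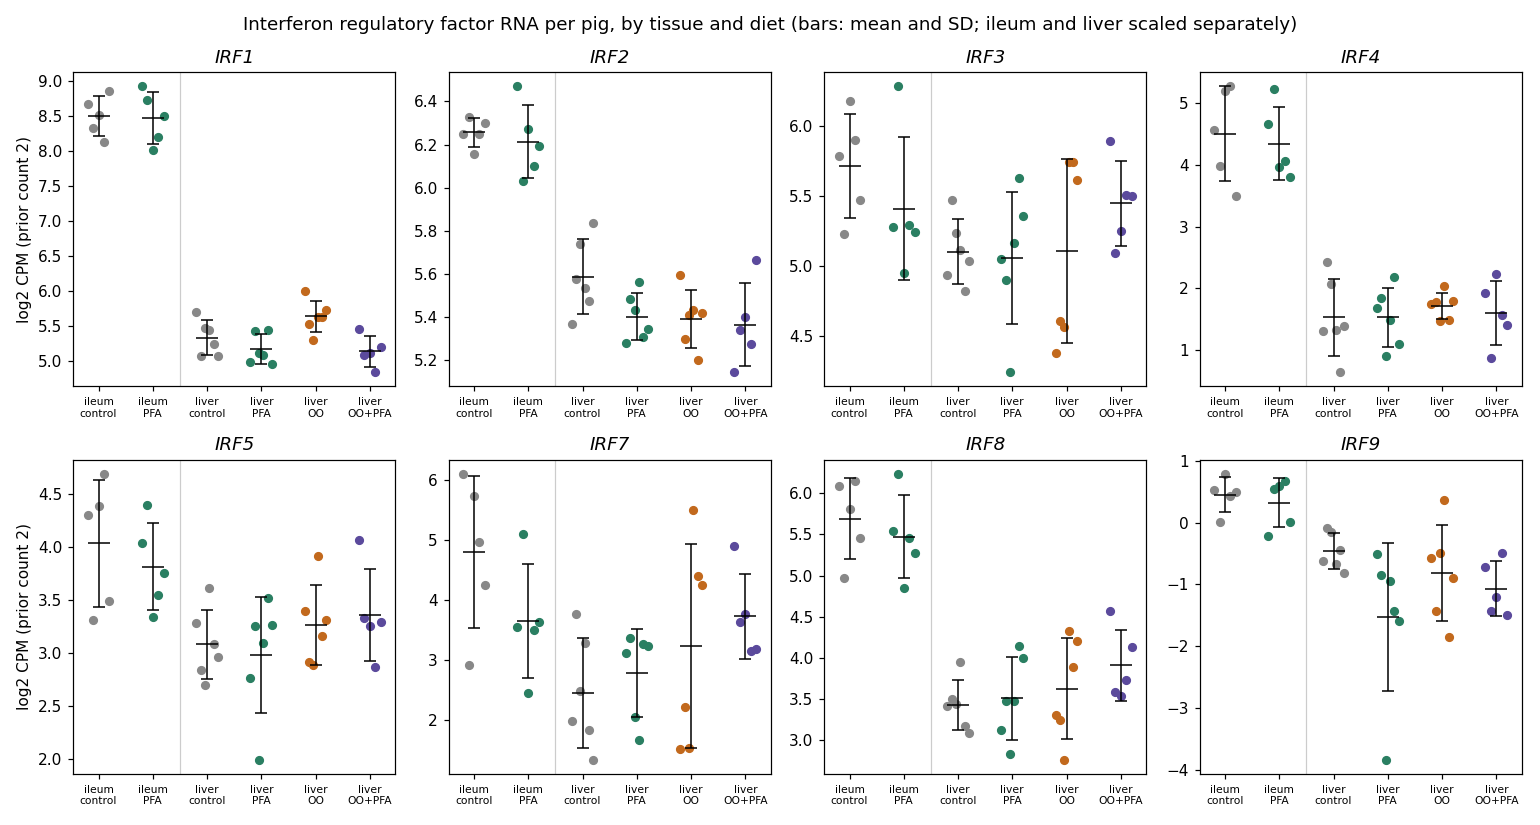
Each point is the log2 CPM (prior count 2) of 1 gene in 1 pig, for 6 groups of tissue and diet, with bars for the mean and SD, and the ileum and liver were scaled separately by TMM, so levels are compared within a tissue only. IRF7 spreads over several log2 units within groups, the lowest IRF9 point is the PFA liver with 0 counts, and IRF3 and IRF7 in the liver of OO pigs fall into 3 high and 3 low values.

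IRF3, which is made constantly and awaits activation, was at 72.6, 59.7, 55.1, 44.3 and 37.4 CPM in control pigs 71, 80, 100, 92 and 110. With PFA it was at 78.1 CPM in pig 134 and between 30.9 and 39.1 CPM in the other 4, so 1 PFA pig was above all control pigs and the others were near or below the lowest of them. The log2 fold change was -0.26 (SE 0.26), -0.56 without pig 134, and -0.05 (SE 0.08) after GC correction. IRF8 was at 53.9 ± 16.6 CPM in the control group (SD, n = 5) and 46.7 ± 17.5 CPM with PFA (SD, n = 5), and IRF4 at 25.2 ± 12.3 (SD, n = 5) and 21.8 ± 9.84 CPM (SD, n = 5). Both were highest among control pigs in pig 80, the library rich in B cell markers, with 70.9 CPM of IRF8 and 38.7 CPM of IRF4. Pigs with low B cell marker sums came near these values. PFA pig 134 (sum 25.4 CPM) had 75.4 CPM of IRF8 and 37.5 CPM of IRF4. Control pig 100 (18.6 CPM) had 67.9 CPM of IRF8, and control pig 71 (25.3 CPM) had 36.7 CPM of IRF4. The part of B cells in these values was not tested. Without pig 80 the log2 fold change of IRF4 went from -0.21 to -0.01. IRF5 had a log2 fold change of -0.27 (SE 0.29), which was -0.09 after GC correction, and IRF9 one of -0.12 (SE 0.26). IRF1 was at 366.0 ± 72.0 CPM in control (SD, n = 5) and 362.7 ± 92.9 CPM with PFA (SD, n = 5), and IRF2 at 76.5 ± 3.48 (SD, n = 5) and 74.6 ± 9.08 CPM (SD, n = 5).

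The pathway around the IRF genes held no called gene in this comparison either. A lower value with PFA was found for 36 of the 38 interferon-induced genes (median of the log2 fold changes -0.36), where 46.7% of all genes were lower. The ubiquitin-like modifier ISG15 was at -1.74 (SE 0.68, adjusted p = 0.991) and OASL at -1.36 (SE 0.68). Among restrainers of the pathway, USP18, which takes ISG15 off proteins, was at -0.81 (SE 0.27), and among sensors DHX58 was at -1.06 (SE 0.38). SPIB, an Ets factor that pairs with IRF4 and IRF8, was at -1.02 (SE 0.46). It ranged from 15.9 to 89.3 CPM in control pigs (median 21.8) and from 11.4 to 23.6 CPM with PFA (median 16.6). The 4 B cell markers tested were all lower with PFA (median -2.54, 0 called), and their sum was far highest in control pig 80. Their part in the SPIB value was not tested. The study selected interferon signalling by a test of gene sets on these same libraries, so the direction of the list is not independent evidence.

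In the liver the first test asked for any difference across the 4 diets, and 0 of 8 members were called where 3.66% of all 13831 genes were. IRF1 came nearest (edgeR adjusted p = 0.0718, 1 of 8 at an unadjusted p under 0.05, as were 25.2% of all genes). It was called by DESeq2 (adjusted p = 0.0242), which called 12.8% of all genes, and had an adjusted p of 0.0531 after GC correction. Its adjusted p was 0.0299 when OO-97 was left out and 0.122 when OO-74 was, and the highest over all alternative fits was 0.140. The other 7 had adjusted p-values of at least 0.250.

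IRF1 had its highest liver values with OO. It ranged from 39.5 to 63.6 CPM with OO (median 49.3) and from 28.6 to 43.7 CPM with OO + PFA (median 34.5), with OO-97 alone below the highest tested OO + PFA pig, OOP-79. OOP-77, left out of the tests, was at 50.3 CPM, above the median of the OO pigs. The control diet gave 33.4 to 51.8 CPM (median 40.6) and PFA alone 30.9 to 43.4 CPM (median 34.2). The log2 fold change of OO + PFA from OO was -0.50 (SE 0.14, unadjusted p = 0.0019, adjusted p = 0.337), and -0.59 (SE 0.14, unadjusted p = 0.00046, adjusted p = 0.127) after GC correction. OO against control gave 0.30 (SE 0.13, adjusted p = 0.198), OO + PFA against control -0.20 (SE 0.14, adjusted p = 0.449) and PFA against control -0.17 (SE 0.13, adjusted p = 0.657). After GC correction these were 0.26 (SE 0.14), -0.33 (SE 0.14, adjusted p = 0.177) and -0.09 (SE 0.14). The comparisons with OO share the OO pigs and those with control share the control pigs, so they are not independent of each other.

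Liver libraries carry titles of 2 forms, each used for some pigs of every diet, and the direction of IRF1 within them was the same for OO against control and for OO + PFA against OO, but not for PFA against control. OO differed from control by 0.39 log2 units among libraries titled PigLiv (3 against 4) and by 0.25 among those titled PL (3 against 2), and OO + PFA from OO by -0.63 (4 against 3) and -0.32 (1 against 3). PFA differed from control by -0.36 among libraries titled PigLiv (3 against 4) and by 0.06 among those titled PL (3 against 2). What the title form stands for is not given in the labels.

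**Figure D3:**
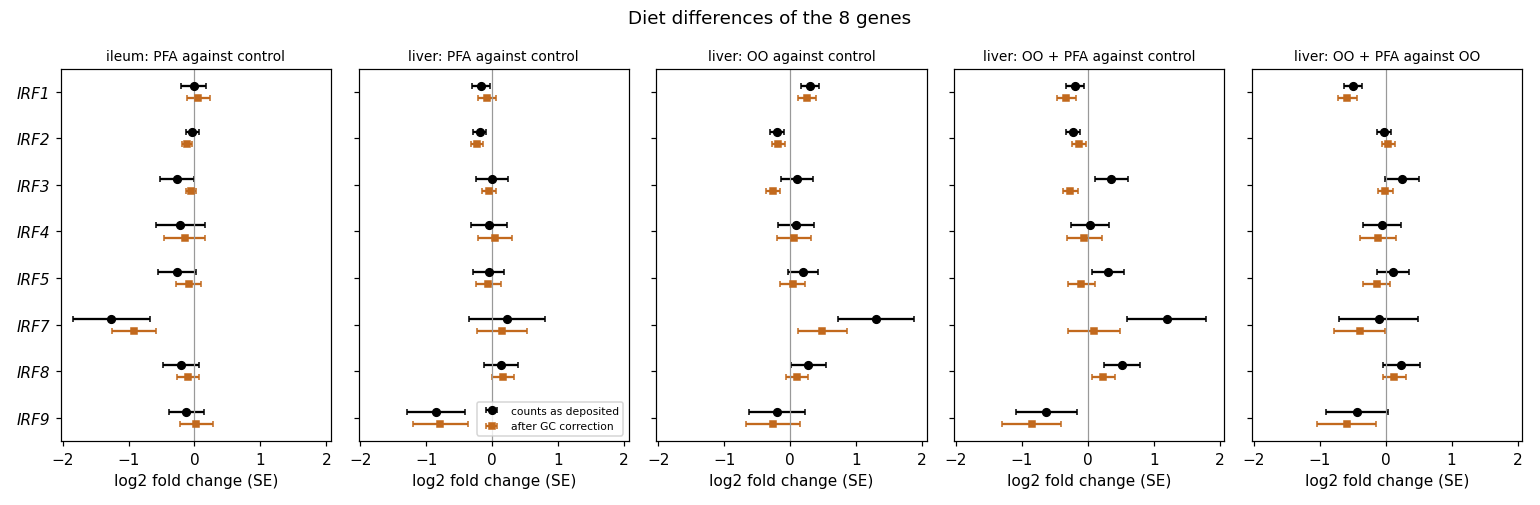
Points are log2 fold changes of the 8 genes in 5 comparisons of diets and bars their SE, as black circles for the counts as deposited and orange squares after GC correction. Before correction IRF7 has the widest bars, and it moves after correction from 1.30 to 0.49 for OO against control, while IRF1 stays at -0.50 and -0.59 for OO + PFA against OO.

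OO against control called 0 of 8 members, where 2.71% of all genes were called, and 2 members had an unadjusted p under 0.05, IRF7 and IRF1, as did 2956 of all genes (21.4%). IRF7 was at 45.5, 21.0 and 19.0 CPM in OO-99, OO-102 and OO-130 and at 4.58, 2.81 and 2.80 CPM in OO-88, OO-97 and OO-74, with no value between. The control livers were at 2.46 to 13.6 CPM (median 4.73), so 3 OO pigs were above all control pigs and 3 were among the lower ones. The log2 fold change was 1.30 (SE 0.58, adjusted p = 0.197), and 0.63 without OO-99. The 3 pigs with high IRF7 are those with GC slopes of at least 0.297, and after GC correction the log2 fold change was 0.49 (SE 0.37, adjusted p = 0.444). It was 1.70 among libraries titled PigLiv (3 against 4) and -0.47 among those titled PL (3 against 2).

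IRF3 split the same pigs. It was at 53.7, 53.6 and 49.0 CPM in OO-102, OO-99 and OO-130 and at 24.2, 23.6 and 20.7 CPM in OO-88, OO-97 and OO-74, while control livers were at 28.2 to 44.4 CPM. All 3 high OO pigs were above and all 3 low ones below the whole control group. The mean difference was small, with a log2 fold change of 0.11 (SE 0.24, adjusted p = 0.830), and -0.26 (SE 0.11, unadjusted p = 0.0233, adjusted p = 0.134) after GC correction. IRF8 was at 20.01, 18.4 and 14.7 CPM in OO-99, OO-130 and OO-102 and at 6.68 to 9.83 CPM in the other 3. The summed macrophage markers (CD68, CD163, CSF1R, MARCO, CD14 and VSIG4) were 602.9 to 822.9 CPM in the former and 323.2 to 441.7 CPM in the latter, and their part in the IRF8 values was not tested. IRF2 was at 42.1 ± 3.92 CPM with OO (SD, n = 6) and 48.4 ± 5.87 CPM in control (SD, n = 6), a log2 fold change of -0.20 (SE 0.10, adjusted p = 0.252). The log2 fold changes of IRF8, IRF5, IRF4 and IRF9 were 0.28 (SE 0.26), 0.20 (SE 0.24), 0.09 (SE 0.27) and -0.20 (SE 0.43), and after GC correction 0.10, 0.04, 0.06 and -0.26.

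Around the members, 3 of 38 interferon-induced genes were called higher with OO, where 2.71% of all genes were called in either direction. Of the 38, 34 had a higher value and 4 a lower one, where 42.3% of all genes were lower (median log2 fold change 0.28 against 0.06 over all genes). Some markers of immune cells were higher in the same comparison, 6 of 6 of macrophages (median 0.45), 5 of 5 of plasma cells (0.35) and 4 of 4 of T cells (0.31). Others were mixed, with 3 of 5 of B cells (median 0.27) and 2 of 4 of dendritic cells (0.41) higher. None of these markers was called, and their part in the list was not tested. The 3 called were the immunoproteasome subunits PSMB9 (0.89, SE 0.24, adjusted p = 0.046), PSMB10 (0.83, SE 0.21, adjusted p = 0.036) and PSMB8 (0.70, SE 0.19, adjusted p = 0.047). IRF2BP2, a corepressor that binds IRF2, fell by 0.54 log2 units (SE 0.13, adjusted p = 0.023). Among sensors, kinases, receptors and partners none was called, and SPI1, the myeloid factor PU.1 that recruits IRF4 and IRF8, was at 0.97 (SE 0.36, adjusted p = 0.119).

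PFA against control in the liver called 0 of 8 members, where 0% of all genes were called, with 0 members and 1522 of all genes at an unadjusted p under 0.05 and 18 genes called by DESeq2. IRF9 was at 0.354 ± 0.219 CPM with PFA (SD, n = 6) against 0.667 ± 0.151 CPM (SD, n = 6), a log2 fold change of -0.86 (SE 0.44, adjusted p = 0.470) that rests on 0 to 26 counts in a PFA library. IRF2 was at 38.8 to 47.3 CPM (median 41.9) against 41.2 to 57.1 CPM (median 47.0) in control, a log2 fold change of -0.19 (SE 0.10). IRF7 was at 3.11 to 10.2 CPM, within the range of the control livers, with a log2 fold change of 0.22 (SE 0.58). IRF8 was at 0.13 (SE 0.26), and IRF3, IRF4 and IRF5 lay between -0.05 and -0.0015. Of the interferon-induced genes 21 were higher and 17 lower, near the share of all genes, of which 46.2% were lower.

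OO + PFA against control called 0 of 8 members, where 5.08% of all genes were called, and 1 member, IRF2, had an unadjusted p under 0.05, as did 3119 of all genes (22.5%). IRF2 was at 35.4 to 50.6 CPM with OO + PFA (median 40.5), a log2 fold change of -0.22 (SE 0.11, adjusted p = 0.214). It was -0.14 without control pig 110 and -0.13 (SE 0.10) after GC correction. IRF7 was at 29.9, 13.6, 12.4, 9.01 and 8.87 CPM in OOP-79, OOP-105, OOP-98, OOP-137 and OOP-126, and the control livers reached 13.56 CPM. Its log2 fold change of 1.19 (SE 0.60, adjusted p = 0.241) was 0.77 without OOP-79, whose GC slope of 0.487 was the highest of the liver, and 0.09 (SE 0.39) after GC correction. IRF8 was at 11.5 to 23.5 CPM with OO + PFA (median 13.2) and at 8.37 to 15.3 CPM in control (median 10.7), a log2 fold change of 0.52 (SE 0.27, adjusted p = 0.271). It was 0.31 without OOP-79 and 0.23 (SE 0.17) after GC correction. IRF3 and IRF5 turned from 0.36 and 0.31 to -0.26 and -0.10 after GC correction, IRF9 was at -0.63 (SE 0.46) and IRF4 at 0.03 (SE 0.29). The macrophage marker sum had a median of 707.2 CPM with OO + PFA and 348.6 CPM in control, and its part in the IRF8 values was not tested. IRAK1, a kinase between MYD88 and IRF5 or IRF7, was the 1 gene of these pathway lists called in this comparison, at 1.31 (SE 0.37, adjusted p = 0.042). Of 38 interferon-induced genes 34 were lower (median -0.35, 0 called) where 51.2% of all genes were. The values of IRAK1 and of this list were not corrected for GC content, and the GC slopes differed between these diets. The 4 T cell markers were lower as well (median -0.59, 3 at an unadjusted p under 0.05, 0 called), as were the 5 B cell markers (median -0.33). Other immune markers were mostly higher or mixed. Higher values were found for 5 of 6 macrophage markers (median 0.31) and 3 of 5 plasma cell markers (0.23). Of the dendritic cell markers 2 of 4 were higher (median 0.46), and 1 of them was called higher. The part of these markers in the list was not tested.

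OO + PFA against OO called 0 of 8 members, where 0% of all genes were called, with 1 member, IRF1, and 1176 of all genes at an unadjusted p under 0.05 and 31 genes called by DESeq2. The IRF1 values stand above. The other 7 ran from -0.44 (SE 0.47) for IRF9 to 0.25 (SE 0.25) for IRF3, and IRF7 was at -0.11 (SE 0.60). Of the 38 interferon-induced genes 36 were lower with PFA on top of OO, 21 of the 38 had an unadjusted p under 0.05 and 0 were called, and the median log2 fold change was -0.64 where 53.5% of all genes were lower. PSMB9 was at -1.35 (SE 0.26, adjusted p = 0.094), PSMB8 at -0.95 (SE 0.20, adjusted p = 0.097), GBP1 at -0.97 (SE 0.26) and TAP1 at -0.56 (SE 0.18). The T cell markers CD2 and CD3E were at -0.91 (SE 0.26) and -0.89 (SE 0.28), and their summed markers had a median of 18.6 CPM with OO + PFA and 32.7 CPM with OO. Lower values were also found for 5 of 5 plasma cell, 4 of 5 B cell, 3 of 6 macrophage and 2 of 4 dendritic cell markers. The part of these markers in the IRF1 and target values was not tested.

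The interaction, whether the effect of PFA differed with OO, called 0 of 8 members, where 0% of all genes were called (1881 at an unadjusted p under 0.05, 0 of them members, and 150 called by DESeq2). IRF1 was at -0.33 (SE 0.20, adjusted p = 0.462), and at -0.50 (SE 0.20, unadjusted p = 0.0189, adjusted p = 0.220) after GC correction. The other 7 ran from -0.33 for IRF7 to 0.42 for IRF9. Of the 38 interferon-induced genes 34 were lower (median -0.73, 0 called), where 55.0% of all genes were. An unadjusted p under 0.05 was found for 13 of these 38, 4 of 12 sensors and adaptors and 3 of 9 receptors and STATs, and for 13.6% of all genes. The effect of PFA in the ileum minus that in the liver of the same 10 pigs called 0 of 8 members as well, where 0% of all 14982 genes were called (739 at an unadjusted p under 0.05, 0 of them members, and 0 called by DESeq2). IRF7 was at -1.42 (SE 0.80, unadjusted p = 0.0929, adjusted p = 0.976) and at -0.88 without control pig 100, and the other members ran from -0.43 for IRF8 to 0.90 for IRF9.

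The members followed the GC slope of the library to very different degrees. With diet means removed, Pearson's r of log2 CPM with the slope was 0.967 for IRF3, 0.901 for IRF7 and 0.900 for IRF8 over the 10 ileum libraries (Spearman's rho 0.891, 0.927 and 0.867). Over the 23 liver libraries it was 0.921, 0.877 and 0.879 (rho 0.901, 0.878 and 0.862). Leaving out the 2 libraries whose slope lay farthest from the median gave r of at least 0.779 for these 6. Over the 16 relations, 5 of 8 members passed in the ileum and 4 of 8 in the liver at an adjusted p of at most 0.05 (two-sided permutation with 100000 resamples, Benjamini-Hochberg), IRF5 in both and IRF4 in the ileum being the others. IRF4 in the ileum had r = 0.708 (adjusted p = 0.0351, permutation), rho = 0.661 (adjusted p = 0.078, permutation) and r = 0.560 without the 2 farthest libraries. IRF1 had r = 0.421 in the ileum and 0.175 in the liver (adjusted p = 0.283 and 0.425, permutation), and IRF2 r = -0.612 and -0.295 (adjusted p = 0.0993 and 0.229, permutation).

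**Figure D4:**
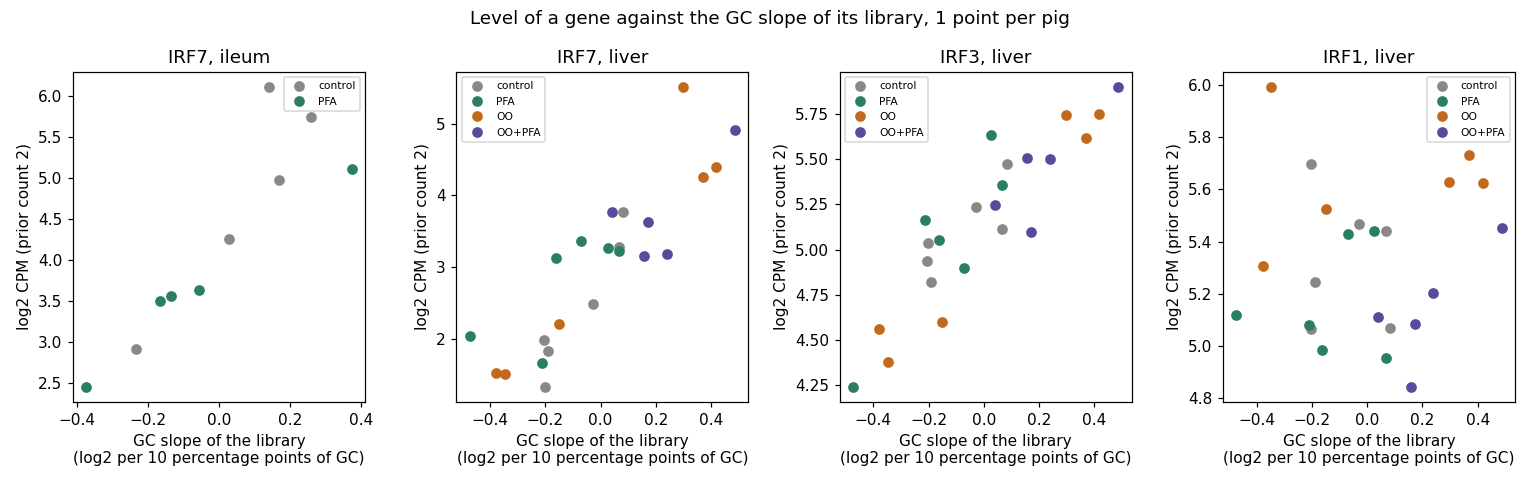
Each point is 1 library, with its GC slope in log2 units per 10 percentage points of GC on the x axis and the log2 CPM (prior count 2) of a gene on the y axis, coloured by diet. IRF7 and IRF3 rise with the slope in the liver (r = 0.877 and 0.921 with diet means removed), and IRF1 does not follow it (r = 0.175).

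The correction removed most of the spread of these genes within a diet. The variance of IRF3 was 95.5% lower in the ileum and 84.2% lower in the liver, that of IRF7 69.8% and 64.3% lower, and that of IRF8 62.4% and 61.3% lower. For IRF1 and IRF2 in the liver it was 9.33% and 12.2% higher after correction. Among the 28 pairs of members, 9 in the ileum and 4 in the liver had an r above 0.7 before the correction, and 4 and 0 after it. IRF3 and IRF7, for example, had r = 0.868 in the ileum and 0.786 in the liver, and 0.107 and 0.068 after correction. These r values describe 10 and 23 libraries, and both genes of a pair carry the depth and base composition of the same library.

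Pearson's r also showed which genes were most like each member across pigs, with diet means removed. In the ileum the genes nearest to IRF7 were DPP3, PLA2G3 and RAB7B (r of 0.979, 0.978 and 0.978, 10 libraries), and in the liver VAC14, DNASE1L1 and MBD3 (0.925, 0.924 and 0.917, 23 libraries). After GC correction they were RAB7B, TRIM25 and RTKN2 in the ileum (0.972, 0.970 and 0.962) and ISG20, HSH2D and ISG15 in the liver (0.796, 0.793 and 0.789). ISG15 and ISG20 are induced by interferon, and TRIM25 is a ligase that activates the sensor RIGI. The genes nearest to IRF1 in the ileum included UBD, a ubiquitin-like protein induced by interferon gamma, before (0.902) and after correction (0.946). For IRF3 they were MAEA, EXD3 and MRPS2 in the ileum (0.993, 0.992 and 0.991), with GC contents of 62.8%, 66.0% and 70.6%. IRF4 was nearest to RUNX2 in the ileum (0.968) and to CD37, a B cell surface protein, in the liver (0.753), IRF8 to KMT2B (0.977) and LYL1 (0.944), IRF5 to FERMT3 (0.978) and PLEKHO2 (0.929), IRF2 to LETM2 (0.953) and USP28 (0.842), and IRF9 to CLEC7A (0.942) and to ADAR, an RNA editing enzyme with an interferon-induced form (0.795). Most of these likenesses changed with the correction. Of the 24 nearest genes of the 8 members in each tissue, 3 in the ileum and 4 in the liver were still among the 3 nearest after it, and CD37 was not.

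Across pigs, IRF7 had the closest relation of the 8 with the interferon-induced genes once the GC content was corrected. Its median r with 38 of them was 0.350 in the ileum and 0.244 in the liver, and with the 36 that have a GC value it was 0.694 and 0.489 after correction, positive for 36 of 36 and 35 of 36. IRF9 followed in the liver, with a median r of 0.473 before and 0.480 after correction. For IRF1 the medians were 0.021 and 0.124 before and 0.004 and 0.087 after, and for IRF2 and IRF3 they were at most 0.15. No test was made of these medians.

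**Figure D5:**
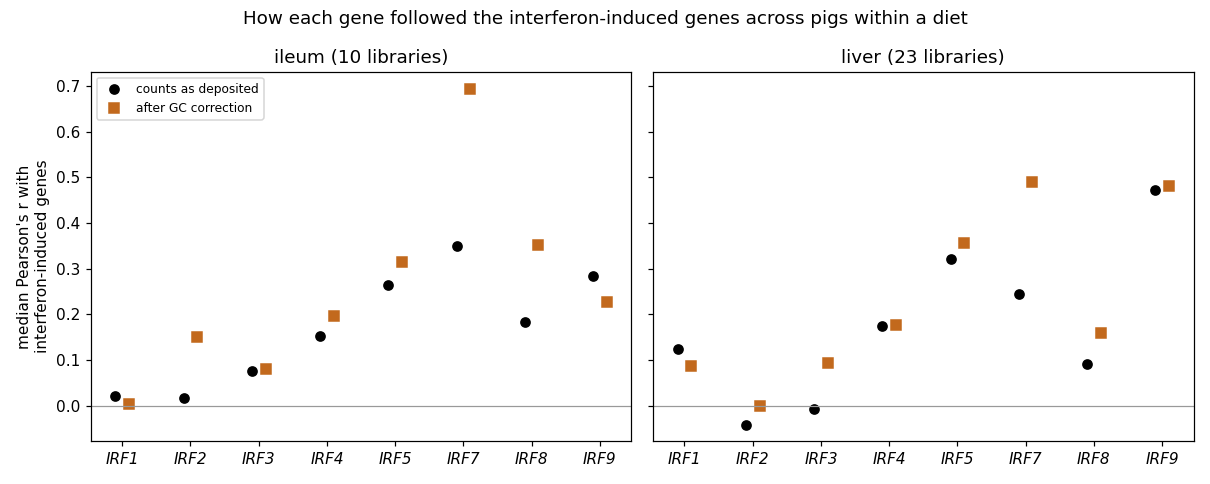
The y axis gives the median Pearson's r, with diet means removed, between each of the 8 genes and the interferon-induced genes over 10 ileum and 23 liver libraries, as black circles for the counts as deposited (38 genes) and orange squares after GC correction (36 genes). IRF7 moves from 0.350 to 0.694 in the ileum and from 0.244 to 0.489 in the liver, and IRF9 is near 0.48 in the liver in both.

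A pig with a high level in the ileum was not shown to have a high level in the liver. Over the 10 pigs with both tissues and with diet means removed, none of the 8 relations passed (two-sided permutation with 100000 resamples, Benjamini-Hochberg over 8). IRF2 had r = 0.567 (permutation p = 0.0868, adjusted p = 0.414) and rho = 0.515 (permutation p = 0.134), with r = 0.405 without the 2 pigs farthest from the ileum median. IRF4 had r = 0.547 (permutation p = 0.103, adjusted p = 0.414) and rho = 0.527 (permutation p = 0.124), with r = 0.506 without the 2 farthest. IRF7 had r = 0.10 (permutation p = 0.780), and control pig 100, with the highest IRF7 of the ileum, had one of the lowest in the liver, 46.98 and 5.04 CPM with the tissues scaled together.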

How the data were processed

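RNA-Seq libraries of piglet ileum (10) and liver (24) were made from poly(A) RNA with a stranded kit and read as pairs. The authors aligned the reads with STAR 2.6.1d to Sscrofa11.1 and deposited, per Ensembl gene, raw counts of read pairs from HTSeq, without normalization. The annotation release is not given in the sources used here, nor is the strand option. Per-library totals for pairs on no gene or on several genes were kept out of the library sizes. Each column of the count tables was matched to a labelled sample.

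Counts were tested with edgeR 4.0.16 (quasi-likelihood, two-sided, TMM, filterByExpr) in R 4.3.3, with p-values adjusted over all genes tested (Benjamini-Hochberg) and a gene was called if its adjusted p did not exceed 0.05. DESeq2 1.42.0 was the alternative. A log2 CPM used a prior count of 2. The 23 liver libraries shared 1 fit, and the SE is the absolute log2 fold change divided by the square root of F. GC content was corrected by a lowess curve per library (span 0.5). All 8 members had a GC value, but 79.3% of the genes tested in the ileum and 79.7% in the liver did, under the 80% set for a check over all genes, so that check is void for the whole tables. The steps were tested on simulated data. Symbols were found for 14857 genes and RefSeq models for 13700.

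The members, gene lists and tests were chosen with earlier results of these data known. Some genes of these lists are not reported here and were left out of the list counts and marker sums. All members were given in each comparison, singly or as a range, with up to 4 genes per list (those called, otherwise those with the smallest p) and the 3 genes most like a member. Genes outside this rule that the text names (PSME1, PSME2, IPO4, the other genes beside IRF9, and the T cell and macrophage markers) were picked after their values were seen. The ileum and liver of 10 pigs were paired by animal. Over 13058 genes the deviations of the ileum and liver of the same pig correlated with r from -0.246 to 0.536 (median 0.147), above 0.1 in 8 of 10 pigs. No replicates were alike within sampling noise. Depth was 18738055 to 42446834 counts per library, and a count of 0 allows up to 3 counts, for counting error only. Alternatives were other scaling, other filters, the GC correction, all 24 liver libraries, the 2 diets compared alone, a term for the form of the title, a pig block and leaving out each pig.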

Additional observations from a re-analysis of the deposited data

Results flagged for a closer look

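In 48 groups of 5 or 6 pigs, 1 for each member, tissue and diet, 2 held a pig far from the others by Dixon's criterion, and chance gives about 1 in 20 groups. IRF3 was at 78.1 CPM in the ileum of PFA pig 134, where the next PFA pig had 39.1 CPM and the lowest 30.9 CPM, a gap of 0.745 of the range. The same library had the highest GC slope of the ileum, 0.373. IRF9 was at 0 CPM in the liver of PFA pig 95, where the next pig had 0.260 CPM and the highest 0.630 CPM, a gap of 0.673 of the range. A count of 0 in that library allows up to 3 counts, or 0.120 CPM by total counts.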

How the results depend on the processing

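The number of members called was the same in 177 of 178 fits that left out 1 pig and in 71 of 73 other fits. Across the 4 liver diets the main count of 0 became 1 (IRF1) with DESeq2, and ranged from 0 to 1 over the pigs left out, with 1 without OO-97. Between tissues the count of 5 became 8 when libraries were scaled by total counts, a setting added after seeing the data, and the log2 differences of 3 members turned from liver to ileum, IRF2 to 0.75, IRF3 to 0.51 and IRF5 to 0.85, since that setting moved the median of all genes to 1.17. With pig as a block, pairing the tissues by animal, 5 members were called again, IRF1 at 2.12, IRF2 at -0.37, IRF3 at -0.61, IRF4 at 1.87 and IRF8 at 0.98, and all 5 were called without each of the 10 pigs. The block changed no call. Single members not called changed sign in 65 of 1240 fits without a pig and in 29 of 513 other fits. The GC correction of likenesses, the relation to the GC slope and the corrected relation of the tissues were also added after seeing the data.

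Counts over all genes moved more than those of the members. Those after GC correction rest on the 11020 genes with a GC value in place of 13831 and are no check of the whole table. OO against control called 375 genes, 1079 with DESeq2, 810 after GC correction, 194 with the 2 diets alone and 224 with all 24 libraries. OO + PFA against control called 702, 1370 with DESeq2, 1690 with the 2 diets alone and 1530 with all 24 libraries. The test over 4 diets called 506, 1776 with DESeq2, 802 after GC correction and 1113 with all 24 libraries, and OO + PFA against OO called 0, 31 with DESeq2, 11 after GC correction and 1 with all 24 libraries. The interaction called 0, 150 with DESeq2, 6 after GC correction and 2 with 3 other settings. The cause was not tested. Counts of at most 39 limit IRF9.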

Other observations

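OOP-77, left out of the tests for the quality of its RNA, had 37.1 CPM of IRF7, 69.3 CPM of IRF3 and 25.3 CPM of IRF8 in the liver, each above the 5 OO + PFA livers that were tested. Its IRF1 was at 50.3 CPM, also above them, and its IRF2 at 30.5 CPM, below them.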
